A study of Mus musculus with 3 samples.

Results

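The cytosolic ribosomal protein genes were taken from the single-cell profiles of the mouse cochlea by symbol: every feature whose name starts with Rps or Rpl and a digit, without processed pseudogenes marked -ps and without the S6 kinases. This gave 82 of the 32285 features, 33 with small-subunit and 49 with large-subunit symbols. Of these, 73 encode canonical ribosomal proteins, 8 are paralogs (*Rpl3l*, *Rpl7l1*, *Rpl10l*, *Rpl22l1*, *Rpl36al*, *Rpl39l*, *Rps27l* and *Rps27rt*), and *Rps19bp1* encodes a protein that binds a ribosomal protein and is not one itself. The rule does not reach 7 ribosomal protein genes under other names, among them *Rpsa*, *Rplp0*, *Rplp1*, *Rplp2*, *Fau* and *Rack1*, which are given separately. Cochleae came from untreated mice, with strain given as C57/B6, at postnatal day 14 (P14, 1 library) and day 28 (P28, 2 libraries). Each library pooled 14 cochleae from 7 mice, dissociated with collagenase IV and captured with the 3′ chemistry of 10x Genomics, so no library separates single animals. Per the study's methods most cells came from the upper basal to the apical turns. The 2 ages were compared side by side and not tested, since the age and the only P14 library cannot be told apart. Cell-type names end in "-like" because they were rebuilt here from markers after clustering without the ribosomal protein genes.

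Ribosomal proteins assemble on ribosomal RNA into the small subunit, which reads the mRNA, and the large subunit, which joins amino acids and releases the growing chain through an exit tunnel. Cells make them in near-equal numbers, so their mRNAs are abundant in almost every cell and tend to go up and down together. Many of these mRNAs begin with a C followed by a stretch of pyrimidines, the feature through which mTOR and Larp1 are known to control their translation. Hair cells are the sensory cells of the organ of Corti, Deiters, pillar, sulcus and Hensen cells are its supporting epithelium, and spiral ganglion neurons carry the signal to the brain.

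The bases around the RefSeq transcription start (GRCm38.p6) are shown for a selection of members whose values are described below and for 2 paralog pairs. Each window runs 5′ to 3′ on the strand of the gene, from 12 bases before the start to 18 bases from it, and capitals mark the longest run of C and T, or the first of them where several are equally long.
Rpl31 (chr1:39367839-39367868, + strand): CCTCCTCgcctccccgtgacccggaagttg
Rpl11 (chr4:136053376-136053405, - strand): acccataaggccacggggccggaagTCTCC
Rps26 (chr10:128626489-128626518, - strand): gggcaagccgccggaTCCTCTTTCgagtct
Rpl35 (chr2:39005114-39005143, - strand): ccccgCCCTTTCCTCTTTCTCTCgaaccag
Rpl22 (chr4:152325714-152325743, + strand): gCCCTgggaaaagcaatagctggccgatcg
Rpl22l1 (chr3:28805496-28805525, + strand): cggcgcaagcccgTTCTCTTCCCacggctg
Rps27 (chr3:90213631-90213660, - strand): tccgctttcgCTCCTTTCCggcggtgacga
Rps27rt (chr9:114982722-114982751, - strand): acttaTCCCTTgctttccggcggtgacgac
The longest run was 18 bases in *Rpl35*, 10 in *Rpl22l1*, 9 in *Rps26* and *Rps27*, and 4 in *Rpl22*, the partner of *Rpl22l1*. Other members described below had shorter runs in this window, with 5 bases in *Rpl36a* and *Rpl36al*, 4 in *Rps28* and 3 in *Rps15* and *Rpl41*. Of the 82 members, 63 had 75 promoters in the RefSeq table. A run of at least 6 C or T within 10 bases of the start, read on the gene's strand, was present in 33 of these 75 promoters (44%) and in 20.2% of all 32851 promoters. The letters CCGGAAG, searched on both strands over the 300 bases from 250 before to 50 after the start, were present in 25 of the 75 (33.3%) and in 8.86% of all promoters. On the opposite strand these letters read as a sequence that starts with pyrimidines, so the 2 searches can meet in the same bases. A match is a description of the letters and not of a bound factor.

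After barcodes were limited to 200 to 6000 genes and at most 15% mitochondrial UMIs, 1662, 5651 and 7065 barcodes remained at P14, P28 replicate 1 and P28 replicate 2, with 7432047, 24596587 and 23300859 UMIs. The P14 library stood apart. The nuclear RNA *Malat1* took 4.92% of its UMIs against 1.98% and 2.40% in the P28 libraries, and mitochondrial genes took 5.62% against 8.22% and 8.49%. Any pair of libraries shared between 4 and 10 kept cell barcodes. Clusters were named in 13, 16 and 19 classes of at least 20 cells, which gave 48 class-by-library sums of UMIs. Names rested on markers such as *Ocm* and *Slc26a5* for outer hair cells (OHC) and *Otof* and *Slc17a8* for inner hair cells (IHC). *Ocm* was among the leading genes of every OHC-like cluster and *Otof* of every IHC-like cluster. The P14 red blood cell-like cluster was also led by histone and cell-cycle genes, and the P14 cluster that the markers placed with Schwann and satellite glial cells (SC/SGC) by *Mbp*, *Mobp* and *Mog*. *Mobp* and *Mog* are known from the myelin of the brain and go against that name, so this cluster is called by its leading genes below. Haemoglobin genes were among the leading genes of the P28 B cell-like cluster. In sums of this kind, more molecules per cell and a larger part of a fixed capture cannot be told apart.

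The 82 genes took 9.23% of all kept UMIs at P14, 13.6% in P28 replicate 1 and 14.2% in P28 replicate 2. Cell classes differed by far more than the P28 replicates did. At P28 the highest shares were in tympanic border cell (TBC)-like cells, which line the scala tympani below the basilar membrane, with 21.6% ± 0.290 (SD, n = 2), followed by fibroblast-like cells with 20.3% ± 0.0878 and B cell-like cells with 19.9% ± 0.365. The lowest were in spiral ganglion neuron (SGN)-like cells with 4.32% ± 0.219 and red blood cell-like cells with 4.59% ± 1.26. The SGN-like class joined unlike clusters. The larger held 3.73% and 4.09% in P28 replicates 1 and 2, at median UMIs per cell of 18888 and 13964. The smaller, of 140 and 42 cells, held 7.01% and 7.53%, at median UMIs of 1659 and 2796. The hair cells were also near the bottom, with 7.73% ± 0.256 in OHC-like and 7.67% ± 0.231 in IHC-like cells. Their supporting epithelium held 17.7% ± 0.384 in inner sulcus, Hensen and outer sulcus cell (ISC/HeC/OSC)-like cells and 15.2% ± 0.113 in inner phalangeal and inner border cell (IPhC/IB)-like cells. Neighbours in this order often overlapped. The 2 P28 values of OHC-like cells (7.55% and 7.91%) and of IHC-like cells (7.50% and 7.83%) interleaved, as did those of fibroblast-like and B cell-like cells. Those of SGN-like cells (4.17% and 4.47%) fell within the pair of red blood cell-like cells (3.70% and 5.48%), in which haemoglobin genes took 70.5% and 62.2% of the UMIs. The order of the 16 classes held by both P28 libraries was nearly the same, with a Spearman coefficient of 0.98 given as a description, since both libraries share their clustering. Exact binomial intervals for counting error only were narrow, for example 4.14% to 4.19% for SGN-like cells in P28 replicate 1.

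**Figure D1:**
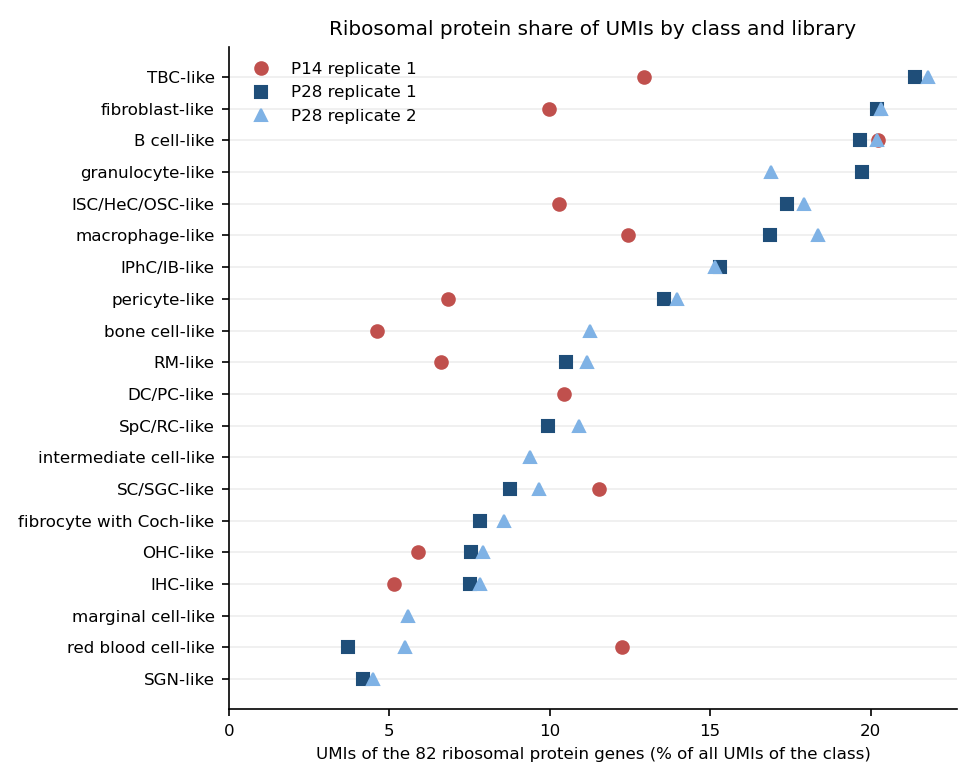
Share of the UMIs of each cell class (x axis, percent) that fell in the 82 ribosomal protein genes, by class (y axis) and library, with 1 point for each library that held at least 20 cells of the class. TBC-like, fibroblast-like and B cell-like cells lie at the right and hair cell-like, SGN-like and red blood cell-like cells at the left. For most classes the P14 point lies left of both P28 points. The P14 point of the SC/SGC-like class is the cluster led by *Mbp*, *Mobp* and *Mog*.

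Beside this order, depth and mitochondrial content differed between classes. The median UMI count per cell was 11899 and 13194 in SGN-like cells and 1566 and 1674 in the Schwann and satellite glial cell (SC/SGC)-like cells of the same P28 libraries, and mitochondrial genes took 12.6% and 11.9% of the UMIs of OHC-like cells at P28. Within OHC-like cells of P14 the share was 3.57% in the 48 cells of 2000 to 4000 UMIs and 6.54% in the 96 cells over 8000 UMIs. In SGN-like cells the order was the other way round, with 6.65% in the 60 cells of 1000 to 2000 UMIs and 3.93% in the 170 cells over 8000 UMIs of P28 replicate 1, and 7.37% in the 27 cells of 2000 to 4000 UMIs and 4.37% in the 209 cells over 8000 UMIs of P28 replicate 2. The part of depth in the differences between classes was not tested by thinning.

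Within the list, levels differed between genes by more than an order of magnitude. Each captured molecule counts once at its 3′ end, so CPM, the counts of a gene scaled to a fixed total of UMIs, of different genes are not scaled to length. The median canonical member had a mean of 1623 CPM over the 48 sums, from 289 CPM for *Rpl23a*, a docking protein at the exit tunnel, to 4325 CPM for *Rps29*, a zinc-binding protein of the small subunit. The other members with the highest means were *Rpl41* (4065 CPM), the smallest ribosomal protein, *Rpl39* (3005 CPM), which lines the exit tunnel, *Rpl37a* (2967 CPM) and *Rps24* (2897 CPM). These 5 genes held 14.1% of the UMIs of the list. Every one of the 73 canonical members had UMIs in every sum. Small-subunit symbols held 43.2% of the list's UMIs, and between 39.7% and 47.8% in single sums.

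The composition of the list was more even than its total. Expressed as a percent of the list's UMIs, the median canonical member had a coefficient of variation of 17.9% over the 48 sums. The most even were *Rpl34* (8.62%), *Rps23* (9.63%) and *Rpl19* (9.84%), proteins of the large, small and large subunit. Among the least even canonical members were *Rps29* (49.6%), *Rpl35* (44.3%) and *Rpl31* (36.3%). *Rps29* ranged from 2.18% to 12.5% of the list and *Rpl31* from 0.179% to 0.951%.

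The genes outside the list whose log2(CPM + 1) followed that of the list's total most closely over the 48 sums, among 1452 genes with a mean of at least 100 CPM, were led by *Fau* (Pearson r = 0.95), *Rplp1* (0.93), *Rplp2* (0.93) and *Rpsa* (0.92), all of them ribosomal proteins that the symbol rule leaves out. The next were *Snrpg* (0.91), a core splicing protein, the elongation factor subunit *Eef1b2* (0.91), *Naca* (0.90), which binds nascent chains, *Eef1a1* (0.89), and the initiation factor subunits *Eif3k* (0.88) and *Eif3h* (0.88). Sums of the same library share their preparation, so these coefficients describe these libraries only.

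OHC-like cells were set against IHC-like cells to ask whether the sensory cells of the cochlea differ in these genes. The total share differed by 0.285 percentage points on average over the 3 libraries, higher in OHC-like cells by 0.729 points at P14 and by 0.0445 and 0.0799 points at P28. This difference was less than the spread between libraries, came to 0.0622 points without the P14 library, and was -0.00649 points when shares of single cells were averaged. These averages differed by -0.481, 0.262 and 0.199 points at P14, P28 replicate 1 and P28 replicate 2. At P14 the median UMI count per cell was 6510 in OHC-like and 1026 in IHC-like cells. The direction of the share difference in single libraries also changed with the limits on cells. It was -0.137, 0.120 and 1.83 points in the same libraries with at most 3000 genes and 15000 UMIs, 0.636, -0.101 and -0.0664 points with at most 30% mitochondrial UMIs, and 0.901, 0.413 and 0.442 points when mitochondrial UMIs were left out of the total. Without clusters in which *Malat1* took over 5% of UMIs it was 1.73 points at P14 and unchanged at P28. At P14 this kept only the OHC-like cluster of 83 cells, at 6.88%. The OHC-like clusters left out, of 171 and 23 cells, held 4.90% and 5.72%, where IHC-like cells held 5.15%. Counts summed by class and library were then tested in edgeR by the quasi-likelihood test over 13438 genes, with p-values adjusted after Benjamini and Hochberg, with the library as a term and a threshold of 0.05. Of the 82 members 80 passed the filter on low counts. With scaling to all UMIs by the trimmed mean of M-values (TMM), OHC-like cells had 3 members higher and 1 lower, where 12.5% of all genes tested were higher and 12.9% lower. The median log2 fold change of the members was 0.29 and that of all genes 0.12. The members called were thus fewer than the background share of genes.

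The gene with the largest difference was *Rps29* (chr12:69157722-69159186 in mm10, - strand). The OHC-like sums held 7356, 5962 and 7531 CPM at P14, P28 replicate 1 and P28 replicate 2, against 3153, 3209 and 4062 CPM in the IHC-like sums. All 3 OHC-like sums lay above all 3 IHC-like sums. The log2 fold change was 1.24 ± 0.30 (SE; edgeR quasi-likelihood test, Benjamini-Hochberg adjusted p = 0.00121). The others called higher were *Rpl21*, a large-subunit protein, with 0.86 ± 0.29 (adjusted p = 0.0248 by the same edgeR test), and *Rps4x*, an X-linked small-subunit protein, with 0.76 ± 0.28 (adjusted p = 0.0387 by the same edgeR test). *Rpl31* (chr1:39367842-39371911, + strand), a protein beside the exit tunnel, was lower, at 173, 235 and 250 CPM against 349, 565 and 498 CPM in the IHC-like sums. Its OHC-like and IHC-like values did not overlap, and its log2 fold change was -0.86 ± 0.26 (adjusted p = 0.0109 by the same edgeR test).

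When each sum was scaled to the UMIs of the list, which asks what part of the ribosomal protein mRNA a gene takes, 2 members were higher and 2 lower, against 4.79% and 13.9% of all genes. This scaling moved the median of all genes by over 0.1 in each comparison, here to a log2 value of -0.17, and the 4 others to 0.61, 1.18, 1.14 and -0.56 in the order in which they follow, so it describes members only relative to one another. *Rps29* took 12.5%, 7.90% and 9.52% of the list in OHC-like cells and 6.12%, 4.28% and 5.19% in IHC-like cells. In each library OHC-like cells had the highest *Rps29* part of all classes named. The log2 fold change was 0.93 ± 0.16 (edgeR quasi-likelihood, Benjamini-Hochberg adjusted p = 3.65e-05). *Rpl31* took 0.295%, 0.311% and 0.317% of the list in OHC-like cells and 0.677%, 0.754% and 0.636% in IHC-like cells, with a log2 fold change of -1.16 ± 0.22. The IHC-like values were the highest or second highest of all classes in each library. *Rpl11* (chr4:136028265-136053428, - strand), which joins the large subunit together with *Rpl5* and can bind the p53 regulator Mdm2, took 0.645%, 0.880% and 0.799% of the list in OHC-like cells and 1.13%, 1.54% and 1.43% in IHC-like cells. OHC-like cells had the lowest *Rpl11* part of all classes in each library, and the log2 fold change was -0.82 ± 0.18. *Rpl21* was higher by 0.55 ± 0.17.

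**Figure D2:**
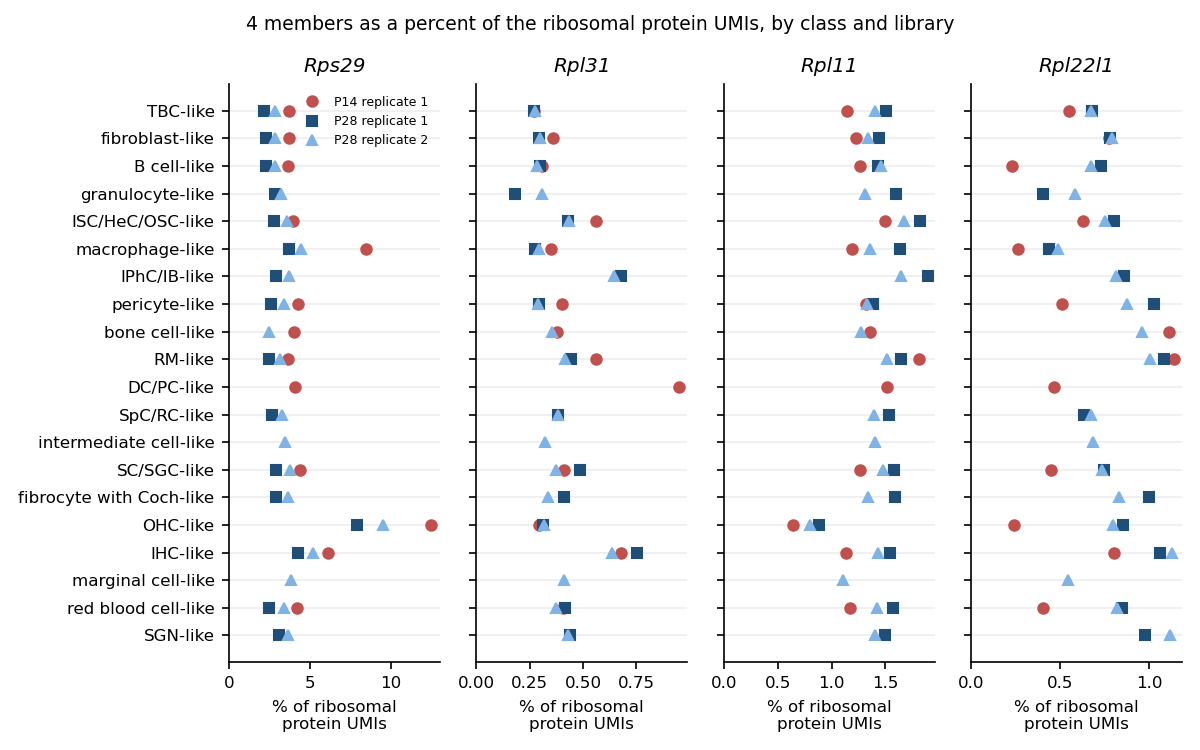
Percent of the ribosomal protein UMIs (x axes) taken by *Rps29*, *Rpl31*, *Rpl11* and *Rpl22l1* in each cell class (y axis), with 1 point for each library. In OHC-like cells *Rps29* reaches 12.5%, 7.90% and 9.52% and *Rpl11* lies below every other class, and *Rpl31* is high in IHC-like cells and low in OHC-like cells.

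These calls rested on both P28 libraries. By TMM, 23 members were higher and 4 lower without the P14 library, where 18.4% and 16.3% of all genes were. Without P28 replicate 1 no member was called by edgeR, where 2.32% of all genes were higher and 3.38% lower. Without P28 replicate 2 none was called either, against 3.64% and 5.73% of all genes. At an unadjusted p under 0.05 there was 1 higher and 0 lower in both cases. The share of all genes at an unadjusted p is not given here or below. Counts of members at that threshold therefore cannot be set against a background. By the list scaling 10 were higher and 13 lower without the P14 library, against 12% and 21.3% of all genes, and 0 and 0 without one or the other P28 library, with 1 higher and 2 lower at an unadjusted p under 0.05. The log2 fold changes themselves moved little: that of *Rps29* stayed between 1.11 and 1.36 and that of *Rpl31* between -0.93 and -0.70. Nearly identical copies of a transcript's 3′ end can take or lose UMIs. Of the 31-base words in the last 300 bases of the longest coding transcript, 52.2% were also found in other annotated genes for *Rps29*, 5.19% for *Rpl11*, and 0 for *Rpl31* and *Rpl21*. It was 100% for *Rpl10* and *Rps27*, 86.7% for *Rps2*, 84.4% for *Rps6*, 82.2% for *Rpl23a*, 73.3% for *Rps26*, 71.1% for *Rpl36al*, 68.5% for *Rps4x*, and 74.1% for *Rps15*, so the levels of these genes are less certain. For *Rps29*, *Rps2*, *Rps6*, *Rpl23a*, *Rps26*, *Rpl36al* and *Rps15* no matching gene outside the list was among the features counted. The longest transcript had 1049 bases in *Rpl31* and 1856 in *Rpl21*. Whether its end is the one captured was not tested, so the value of 0 does not show that these genes lack copies.

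Other genes of translation were compared between OHC-like and IHC-like cells by TMM, where 12.5% of all genes were higher and 12.9% lower. The ribosomal proteins under other names had 0 of 7 called in either direction by edgeR at the adjusted threshold. Mitochondrial ribosomal protein genes, which build the separate ribosome of mitochondria, had 16 higher and 1 lower in OHC-like cells of 77 tested, initiation factors 4 and 1 of 30, ribosome biogenesis genes 3 and 0 of 32, elongation genes 0 and 1 of 10, and regulators of translation 2 and 3 of 19. The elongation gene that was lower was *Eef2k*, the kinase that inhibits elongation factor 2, with a log2 fold change of -1.03 ± 0.20 (edgeR quasi-likelihood, Benjamini-Hochberg adjusted p = 6.83e-05).

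OHC-like cells were next set against the supporting cells below them. Deiters and pillar cell (DC/PC)-like cells were named at P14 only, with 73 cells, so this comparison had 1 sum on each side, no replicate of either class, and its values are a description of these 2 sums. The share was 5.88% in OHC-like and 10.4% in DC/PC-like cells, a difference of -4.56 percentage points, or -2.90 when shares of single cells were averaged. When cells were limited to 3000 genes and 15000 UMIs, a DC/PC-like class was named in the P28 libraries instead and the mean difference there was -8.02 points. By TMM the median log2 fold change of the 80 members was -0.85 where all genes had 0. The joint fit, which gave these sums the spread of the other classes, put 0 members higher and 7 lower past the threshold, against 10.5% and 12.1% of all genes, and these counts have no replicate check. With either P28 library left out, fewer members and fewer of all genes passed it. *Rpl31* had 992 CPM in DC/PC-like and 173 CPM in OHC-like cells (log2 -2.42). *Rpl11* had 1585 and 379 CPM (-1.97), *Rpl23a* 388 and 104 CPM (-1.80) and *Rpl22l1* 486 and 140 CPM (-1.70). *Rps29* had the higher value in OHC-like cells, 7356 against 4275 CPM.

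As parts of the list, *Rps29* took 12.5% in OHC-like against 4.10% in DC/PC-like cells (log2 1.61) and *Rps19bp1* 0.0680% against 0.0200% (1.76), the latter on 9 UMIs in DC/PC-like cells. *Rpl31* took 0.295% against 0.951% (-1.69). The values of *Rpl11* (-1.23), *Rpl23a* (-1.07) and *Rps26* (-0.94), a small-subunit protein where the mRNA leaves the ribosome, were also below 0. On this scaling the joint fit put 2 members higher and 4 lower past the threshold, against 19.3% and 7.21% of all genes, again with no replicate check. Here too fewer members and fewer of all genes passed it with either P28 library left out. DC/PC-like cells held the highest *Rpl31* part of all 48 sums. The *Rpl23a* value was 0.07 with the DC/PC-like class of the P28 libraries under the limit of 3000 genes and 15000 UMIs. Of the companion genes, *Rplp0* (-1.66), *Fau* (-1.37) and *Eef1a1* (-1.27) had log2 values by TMM that were further below 0 than the median of the members. As sets the companions were less far below it. The median was -0.48 for the 7 ribosomal proteins under other names and -0.04 for the 10 elongation genes, against -0.85 for the members.

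The supporting class with the most cells that was present in all 3 libraries, ISC/HeC/OSC-like cells, gave a comparison with replicates that was added after the classes were known. OHC-like cells had a lower share in each library, by 4.41 percentage points at P14 and by 9.83 and 10.0 points at P28. By TMM, edgeR called 0 members higher and 75 lower, against 24.6% and 28.5% of all genes, and the median log2 fold change was -1.45 where all genes had -0.06. At an unadjusted p under 0.05 the number in either direction was also 75. DESeq2 called 0 higher and 75 lower, against 27.3% and 26.1% of all genes. The largest falls were in *Rpl11* (-2.45 ± 0.28), *Rps26* (-2.35 ± 0.33) and *Rpl10* (-2.12 ± 0.27), an X-linked protein needed in the last steps of large-subunit maturation. For *Rpl11* the OHC-like values were 379, 664 and 632 CPM against 1544, 3165 and 3002 CPM in the supporting class, and for *Rps26* 527, 571 and 671 CPM against 2126, 2440 and 2904 CPM. Neither pair of groups overlapped. The 5 members not called included *Rps29*, *Rps15*, *Rpl7l1* and *Rpl39l*, and *Rps29* had 7356, 5962 and 7531 CPM against 4088, 4824 and 6393 CPM in the supporting class (0.18 ± 0.29). The OHC-like value was the higher in each library, while the groups overlapped across libraries.

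Relative to the list, *Rps29*, *Rps15* and *Rpl7l1* were at the top. Of 80 members, 9 were higher and 11 lower in OHC-like than in ISC/HeC/OSC-like cells, against 55.1% and 9.64% of all genes. *Rps29* took 12.5%, 7.90% and 9.52% against 3.97%, 2.78% and 3.57% of the list (log2 1.52 ± 0.16, edgeR quasi-likelihood, Benjamini-Hochberg adjusted p = 4.96e-10). The next were *Rps15* (1.05 ± 0.23), a small-subunit protein near the decoding site, and *Rpl7l1* (1.02 ± 0.30), a paralog with a part in large-subunit assembly. *Rps15* took 0.574%, 0.462% and 0.449% against 0.362%, 0.185% and 0.194% of the list, with no overlap. The lower members were led by *Rpl11* (-1.11 ± 0.18), *Rps26* (-1.01 ± 0.18) and *Rpl10* (-0.78 ± 0.21). OHC-like cells had the lowest *Rps26* part of all classes in each library. Without the P14 library 23 members were higher and 22 lower relative to the list, against 63.4% and 9.21% of all genes. Without P28 replicate 1 these counts were 1 and 2 (31.4% and 5.08% of all genes), and without P28 replicate 2 they were also 1 and 2 (36% and 6.17%). By TMM the count of lower members was 76 without P14, 18 without P28 replicate 1 and 48 without P28 replicate 2. Of all genes 29.6%, 14.3% and 18.5% were lower in these cases. Mitochondrial genes took 8.38%, 12.6% and 11.9% of the UMIs in OHC-like and 3.80%, 8.10% and 8.95% in ISC/HeC/OSC-like cells, and median UMIs per cell were 6510, 5237 and 3751 against 2723, 2890 and 2370. Their part in these differences was not tested. By TMM, where 24.6% of all genes were higher and 28.5% lower, all 7 ribosomal proteins under other names were lower as well. On that scaling 5 were higher and 15 lower of 30 initiation factors, 2 and 5 of 10 elongation genes and 4 and 6 of 32 biogenesis genes. Of 77 mitochondrial ribosomal protein genes 5 were higher and 37 lower, and of 19 regulators of translation 6 and 4.

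**Figure D3:**
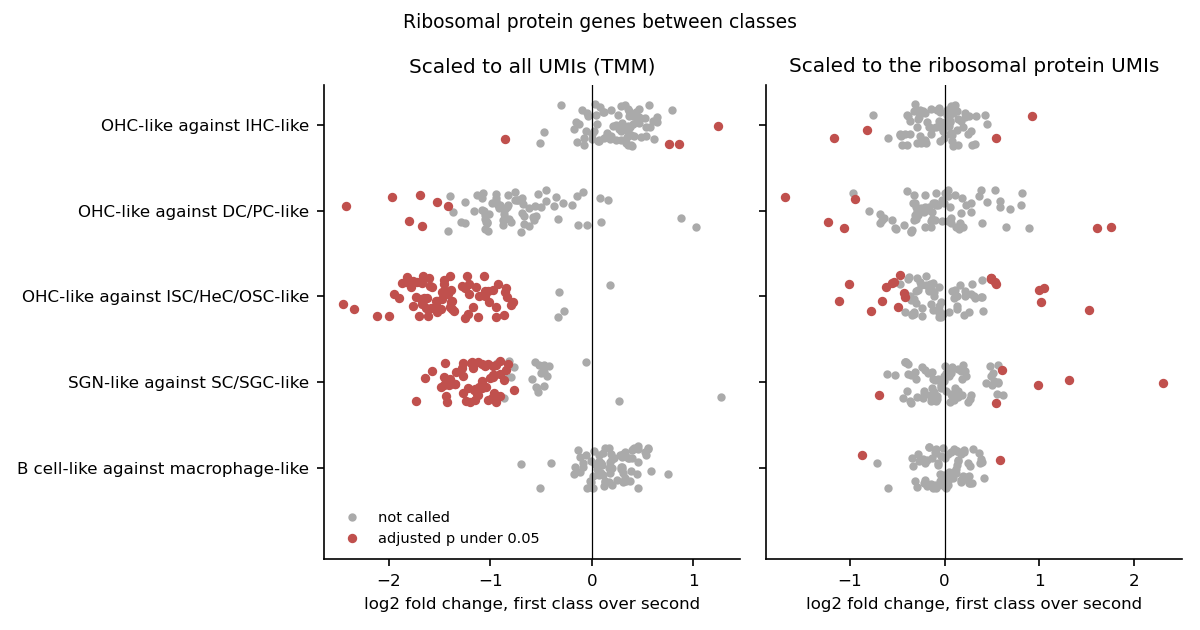
Log2 fold change of each member tested (x axes) in 5 class comparisons (y axis), scaled to all UMIs by TMM (left) and to the ribosomal protein UMIs (right). Points in red had an adjusted p under 0.05 by edgeR, points are spread vertically only for legibility, and *Rpl39l*, with few or no UMIs, is left out. In the left panel nearly all points lie below 0 for OHC-like against ISC/HeC/OSC-like and for SGN-like against SC/SGC-like cells. In the right panel the points centre near 0. There *Rps29* is at the right end for OHC-like against IHC-like and against ISC/HeC/OSC-like cells, and second to *Rps19bp1* against DC/PC-like cells. The comparison with DC/PC-like cells has 1 sum on each side.

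Neurons were set against the glia around them in the 2 P28 libraries, which held both classes, so that the P14 cluster led by *Mbp*, *Mobp* and *Mog* was no part of the comparison. The share was 4.17% and 4.47% in SGN-like and 8.74% and 9.67% in SC/SGC-like cells, and the mean difference of -4.89 percentage points was larger than the spread between libraries. It was -1.89 among cells of 1000 to 5000 UMIs, with -0.911 in P28 replicate 1 and -2.86 in P28 replicate 2. When shares of single cells were averaged it was -2.99. By TMM, edgeR called 0 members higher and 57 lower in SGN-like cells, against 16.2% and 14.7% of all genes, and the median log2 fold change was -1.03 where all genes had 0.12. At an unadjusted p under 0.05 the number in either direction was 64. DESeq2 called 0 higher and 66 lower, against 12.4% and 18.6% of all genes. The largest falls were in *Rps2*, a small-subunit protein at the mRNA entry, with 336 and 354 CPM in SGN-like against 1201 and 1168 CPM in SC/SGC-like cells (-1.73 ± 0.40), *Rps27l* (-1.64 ± 0.34), and its canonical partner *Rps27* with 587 and 747 against 1687 and 2434 CPM (-1.57 ± 0.33). In each of these 3 genes the SGN-like values lay below the SC/SGC-like values.

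As a part of the list, 5 members were higher and 1 lower in SGN-like than in SC/SGC-like cells, against 36.3% and 7.27% of all genes. *Rpl36al*, a paralog without introns of the X-linked *Rpl36a*, took 0.811% and 0.797% of the list in SGN-like and 0.332% and 0.316% in SC/SGC-like cells (log2 1.31 ± 0.27, edgeR quasi-likelihood, Benjamini-Hochberg adjusted p = 0.000152). *Rps6*, the target of the S6 kinases, took 0.759% and 0.739% against 0.434% and 0.316% (0.98 ± 0.27), and *Rpl13a* 0.828% and 0.757% against 0.470% and 0.576% (0.61 ± 0.24). The fifth, *Rpl24* (0.54), was not taken by the rule for named genes and was chosen after its values were seen. *Rpl7l1* was higher by 2.31 ± 0.64, on 3 and 2 UMIs in SC/SGC-like cells, and *Rps2* was lower (-0.69 ± 0.26). SGN-like cells had the highest *Rpl23a* part of all classes in both libraries. The calls again rested on both P28 libraries. By TMM no member was called when one or the other P28 library was left out, and at an unadjusted p under 0.05 there were 1 lower without P28 replicate 1 and 8 without P28 replicate 2, while without P14 71 were lower, against 17.6% of all genes. By the list scaling 16 were higher and 11 lower without P14, against 42.5% and 10% of all genes, and none was called with one or the other P28 library left out, with 2 higher at an unadjusted p under 0.05 in each case. When cells were limited to 3000 genes and 15000 UMIs, edgeR by TMM called 0 members, against 9.78% of all genes higher and 5.79% lower. At an unadjusted p under 0.05 there were 13 members lower, a count without the share of all genes at that threshold. *Malat1* took 0.690% and 0.807% of the UMIs of SGN-like and 4.65% in both libraries of SC/SGC-like cells, a difference whose part in the result was not tested.

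By TMM, where 16.2% of all genes were higher and 14.7% lower, the companion genes did not all move with the list in SGN-like cells. *Eef1a2*, the elongation factor form of neurons and muscle, was higher with 837 and 749 CPM in SGN-like against 19.0 and 10.9 CPM in SC/SGC-like cells (log2 5.66 ± 0.44). The SC/SGC-like sums held 158249 and 91607 UMIs in total, so their *Eef1a2* values rest on very few UMIs. *Eef1a1*, the general counterpart of *Eef1a2*, was lower with 598 and 552 against 2117 and 1452 CPM (-1.58 ± 0.30). Of the ribosomal proteins under other names, *Rplp0* (-2.22 ± 0.41), *Rplp1* (-0.94 ± 0.32), *Rplp2* (-1.06 ± 0.32) and *Fau* (-1.12 ± 0.34) were lower and none of 7 was higher. Initiation factors had 6 higher and 3 lower of 30, elongation genes 2 and 3 of 10, biogenesis genes 3 and 0 of 32, mitochondrial ribosomal proteins 5 and 2 of 77 and regulators of translation 2 and 2 of 19.

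B cell-like and macrophage-like cells, which come from the blood lineages, both had high shares. The share was 20.2%, 19.7% and 20.2% in B cell-like and 12.4%, 16.9% and 18.4% in macrophage-like cells, higher in B cell-like cells in each library by 7.81, 2.81 and 1.83 percentage points. The mean difference of 4.15 points came down to 2.32 without the P14 library. With at most 3000 genes and 15000 UMIs the differences were 7.44, -0.866 and 1.15 points, so that the direction turned in P28 replicate 1. With mitochondrial and haemoglobin genes left out of the total they were 8.09, 6.75 and 3.21 points. By TMM, edgeR called 0 of 80 members in either direction, against 3.89% higher and 7.87% lower of all genes. At an unadjusted p under 0.05 the number was 2. DESeq2 called 4 higher and 0 lower, against 5.37% and 4.95% of all genes. By the list scaling 1 member was higher and 1 lower, against 3.04% and 7.76% of all genes. *Rps29* took 3.66%, 2.28% and 2.86% of the list in B cell-like and 8.44%, 3.73% and 4.45% in macrophage-like cells, lower in B cell-like cells in each library and with no overlap (log2 -0.87 ± 0.16, edgeR quasi-likelihood, Benjamini-Hochberg adjusted p = 0.000254). *Rps26* took 1.81%, 1.57% and 1.64% against 1.23%, 1.01% and 1.10%, with no overlap (0.59 ± 0.18). Without the P14 library 4 members were higher and 1 lower by TMM, against 4.48% and 7.82% of all genes, and 4 and 2 relative to the list, against 4.31% and 7.5%. With one or the other P28 library left out edgeR called none, with 0 by TMM and 1 lower relative to the list at an unadjusted p under 0.05. Of the companions by TMM, *Eef1e1*, a part of the aminoacyl-tRNA synthetase complex, was the elongation gene called higher (1.45 ± 0.48). On that scaling none of 7 ribosomal proteins under other names was called. Of 32 biogenesis genes 3 were higher, and of 77 mitochondrial ribosomal protein genes also 3, where 3.89% of all genes were.

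The paralogs together held 1.5% of the UMIs of the list and were unlike each other. *Rpl22l1* (chr3:28805436-28807424, + strand) was the most abundant, with a mean of 831 CPM over the sums, and *Rpl36al* had 510 CPM, *Rps27l* 265 CPM, *Rps27rt* 115 CPM and *Rpl7l1* 46.2 CPM. *Rps19bp1* had 41.0 CPM. The paralogs known from testis and muscle were near absent. *Rpl39l* had 12, 6 and 7 UMIs in the 3 libraries, of which 10 of the 12 at P14 were in red blood cell-like cells, *Rpl3l* had 0, 1 and 5, and *Rpl10l* had 1, 0 and 0. *Rpl22l1* took 0.238% of the list in OHC-like cells at P14 and 0.849% and 0.798% at P28, while its partner *Rpl22* took 0.570%, 0.573% and 0.532% and so was nearly level between the libraries. *Rps27rt* is a copy of *Rps27* without introns on another chromosome, and 89.3% of the 31-base words at its transcript end also occur in *Rps27*, so UMIs of this pair may have been split by the counting.

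**Figure D4:**
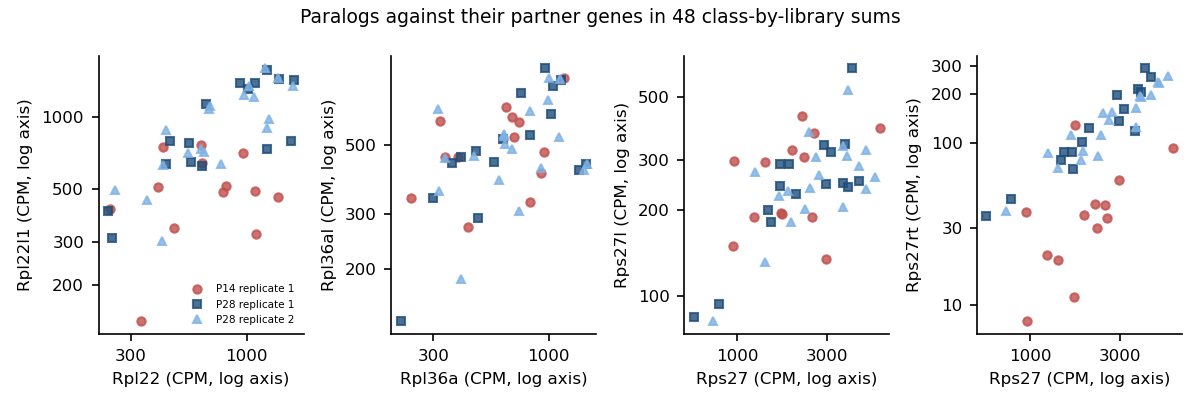
Level of 4 paralogs (y axes, CPM, log axes) against that of the partner gene (x axes, CPM, log axes), with 1 point for each of the 48 class-by-library sums. *Rps27rt* lies lower against *Rps27* in most P14 sums than in most P28 sums. The P14 cluster led by *Mbp*, *Mobp* and *Mog* is an exception, with 12 *Rps27rt* and 161 *Rps27* UMIs. Some P14 points rest on few *Rps27rt* UMIs, such as 2 in IHC-like cells. *Rpl22l1* is low against *Rpl22* in several P14 sums, which are the macrophage-like, B cell-like, OHC-like and red blood cell-like ones.

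Between the ages, the total share was lower at P14 than in both P28 libraries in 8 of the 11 classes that all libraries held, and in 8 of 10 without the SC/SGC-like class. It was 5.88% against 7.73% ± 0.256 in OHC-like cells, 5.15% against 7.67% ± 0.231 in IHC-like cells, 10.3% against 17.7% ± 0.384 in ISC/HeC/OSC-like cells and 9.97% against 20.3% ± 0.0878 in fibroblast-like cells (SD, n = 2 for P28, 1 library at P14). In the 3 other classes it was higher at P14 than in both, with 12.2% against 4.59% ± 1.26 in red blood cell-like, 11.5% in the P14 cluster led by *Mbp*, *Mobp* and *Mog* against 9.21% ± 0.656 in the SC/SGC-like cells of P28, and 20.2% against 19.9% ± 0.365 in B cell-like cells. *Malat1* was higher at P14 in 10 of the 11 classes, all but SC/SGC-like cells, and mitochondrial genes were lower in all 11. *Malat1* took 5.73% at P14 and 1.23% on average at P28 in OHC-like cells and 8.94% and 2.46% in fibroblast-like cells. In the ISC/HeC/OSC-like class it took 3.81% and 2.15%. Without *Malat1*-rich clusters (over 5% of UMIs) the P14 share was 6.88% in OHC-like cells and 10.6% in ISC/HeC/OSC-like cells. In OHC-like cells this kept only the cluster of 83 of the 277 cells. Those left out, of 171 and 23 cells, held 4.90% and 5.72%. The P14 share remained 5.15% in IHC-like cells, and the P28 shares of these classes did not change. The median UMI count per IHC-like cell was 1026 at P14 and 9310 and 8008 at P28. The part of *Malat1*, of mitochondrial genes or of depth in the result was not tested.

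Because the totals differed, members were compared between ages by their part of the list. In ISC/HeC/OSC-like cells, the class with the most UMIs at P14, *Rpl35*, a large-subunit protein at the exit tunnel, took 1.22% at P14 and 0.519% and 0.656% at P28. *Rps15* took 0.362% against 0.185% and 0.194%, and *Rpl7l1* 0.0546% against 0.0222% and 0.0196%. Both P28 values were below the P14 value in each of these 3, which the choice of members required. In the other direction *Rps27rt* took 0.0348% at P14 and 0.124% and 0.131% at P28. Being above the P14 value in both libraries was again a condition of the choice.

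In OHC-like cells the members with the largest ratios in their part of the list included *Rpl22l1*, with a mean log2 ratio of P28 to P14 of 1.79, *Rps27rt* with 1.65 and *Rpl21* with 0.61. Among the lowest ratios were those of *Rpl35* (-0.85), *Rps28* (-0.80) and *Rps19bp1* (-0.69). *Rps28*, a small-subunit protein near the mRNA exit, took 2.35% at P14 and 1.23% and 1.49% at P28. *Rps29* took 12.5% at P14 against 7.90% and 9.52%.

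Several of these differences held over all classes that the libraries shared. *Rpl35*, *Rps28*, *Rps29* and *Rps26* took a smaller part of the list in both P28 libraries than at P14 in 11 of 11 classes, with median log2 ratios of -1.15, -0.80, -0.52 and -0.30. *Rpl9* and *Rpl13*, large-subunit proteins, took a larger part in 11 of 11, with 0.46 and 0.35. *Rpl22l1* was larger in 10 of 11 (0.73, from -0.13 to 1.79) and *Rps27rt* in 6 of the 7 classes with enough UMIs (1.61). Without the SC/SGC-like class these counts were 10 of 10 for each of the first 6 genes, 9 of 10 for *Rpl22l1* and 6 of 6 for *Rps27rt*. These classes share their library, so they are not replicates of an age. Copies with nearly the same 3′ end moved between the libraries too. *Rps27rt* held 1.73% of the UMIs of the *Rps27* pair at P14 and 5.27% and 4.64% at P28, and *Gm2000*, which shares most of the transcript end of *Rpl35*, held 1.27% and then 4.97% and 3.63% of the UMIs of that pair. For *Rpl41* the copy *Gm10076* held 16.1%, 4.12% and 10.3%. Whether the assignment of UMIs between such copies had a part in the age values was not tested.

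**Figure D5:**
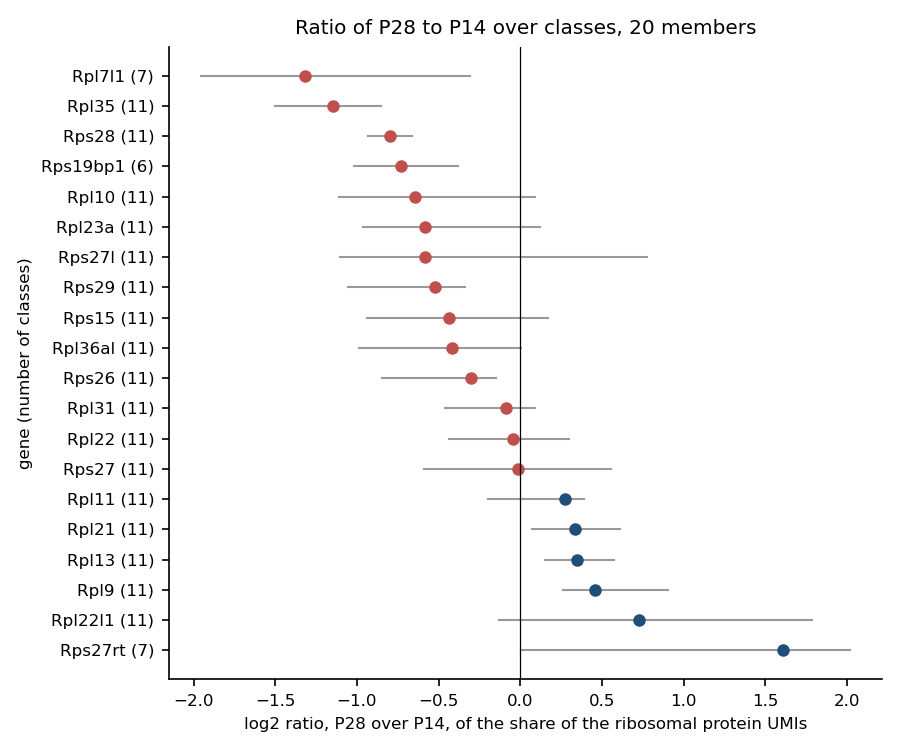
Log2 ratio of P28 (mean of 2 libraries) to P14 of the part of the ribosomal protein UMIs (x axis) for members named in the text and some partners (y axis, ordered by median, with the number of classes in brackets). Points are medians over classes and lines run from the lowest to the highest class. *Rpl35* and *Rps28* lie below 0 over their whole range, and *Rpl9* and *Rpl13* above 0.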

How the data were processed

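Whole-cochlea single-cell RNA libraries from P14 (1 library) and P28 (2 libraries) mice were used as deposited by the authors, as raw UMI counts per gene and barcode in filtered matrices, with no normalization. The file headers name Cell Ranger 5.0.1, and the submitters' processing notes name Cell Ranger 6.0.1 and mm10. Every value column was mapped to a sample (0 were not). Barcodes with 200 to 6000 genes and at most 15% mitochondrial UMIs were kept, and no doublet caller was run. Cells were clustered in Seurat 5.3.0 without the ribosomal protein and mitochondrial genes (2000 variable genes, 30 components, resolution 1, P28 libraries integrated). Clusters were named from fixed markers. At least 3 had to reach a log2 ratio of 1 over the median cluster and be found in at least 5% of cells. Cell types were ranked first by how many such markers reached 50% of their highest cluster, a rule of scoring chosen after the clusters were seen.

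UMIs were summed by class and library where at least 20 cells were held. The sums of all classes were fitted together in edgeR 4.0.16 (R 4.3.3) with class and library as terms, by the quasi-likelihood test with Benjamini-Hochberg adjustment over 13438 genes. TMM scaling and scaling to the UMIs of the 82 genes were used, and DESeq2 1.42.0 was an alternative. Shares and levels were computed in Python 3.11.15 with pandas 2.3.3, numpy 2.4.6 and scipy 1.17.1, and the figures drawn with matplotlib 3.10.9. Printed CPM are per total UMIs of the sum. The test was run on simulated data, where fold changes were recovered on average but most of the changed genes were not called, so a member not called is not shown to be level. Intervals are exact binomial at 95% and, like all counts here, cover counting error only. P-values rest on the spread left after the class and library terms over the sums of all classes, not on the 2 classes compared alone. That spread also holds differences of classes between the ages. The libraries are pools, so p-values do not measure the spread between animals.

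Classes of one library share its cells' preparation, so the library is a block in the design. Deviations of paired sums correlated at 0.50 to 0.63 for OHC-like and IHC-like cells, 0.47 to 0.50 for OHC-like and ISC/HeC/OSC-like cells, 0.084 to 0.33 for B cell-like and macrophage-like cells, and 0.051 for the 2 libraries of SGN-like and SC/SGC-like cells. The text names the 5 members with the highest mean CPM, all paralogs with their partners, up to 4 called members in each direction and scaling with the same direction in every library and at least 30 UMIs, 4 members in each direction between ages in the ISC/HeC/OSC-like and OHC-like classes, and the 10 genes most like the list's total. Members named between ages also had to differ from P14 in the same direction in both P28 libraries. The members, lists and comparisons were chosen with earlier results of these data known. Alternatives changed the scaling, tool, low-count filter, library term, cell limits, clustering and libraries. Coordinates are those of GENCODE M21 on mm10, and start-site sequences those of RefSeq on GRCm38.p6. Some genes that the rule takes are not reported here.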

Additional observations from a re-analysis of the deposited data

Results flagged for a closer look

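The change of the ribosomal protein share from P14 to the mean of the P28 libraries went against that of 8 other classes in 3 classes: it was -7.65 percentage points in red blood cell-like, -2.33 in SC/SGC-like (at P14 the cluster led by *Mbp*, *Mobp* and *Mog*) and -0.295 in B cell-like cells. The difference from the other classes was not tested, since P14 had 1 library. The P14 red blood cell-like sum also held fewer haemoglobin UMIs (38.1% against 70.5% and 62.2%), as did the P14 B cell-like sum (0.0726% against 14.8% and 5.86%). Without mitochondrial and haemoglobin UMIs the B cell-like share was 21.3% at P14, below the 25.2% and 23.6% of P28.

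Barcodes left out by the mitochondrial limit held ribosomal protein UMIs too, at 4.64% of their UMIs at P14, 8.50% in P28 replicate 1 and 9.44% in P28 replicate 2, over 498, 5986 and 10778 barcodes. Symbols with -ps, which the rule leaves out, held 580, 3168 and 3387 UMIs in the same libraries.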

How the results depend on the processing

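Leaving out 1 library at a time gave 0 to 23 members higher and 0 to 4 lower in OHC-like against IHC-like cells. Of all genes 2.32% to 18.4% were higher and 3.38% to 16.3% lower. Relative to the list 0 to 10 members were higher and 0 to 13 lower (0.71% to 12% and 2.38% to 21.3% of all genes). B cell-like against macrophage-like cells had 0 to 4 and 0 to 1 (0.828% to 4.48% and 1.75% to 7.82%). Relative to the list they had 0 to 4 and 0 to 2 (0.323% to 4.31% and 0.797% to 7.5%). Against ISC/HeC/OSC-like cells OHC-like cells had 18 to 76 members lower (14.3% to 29.6%). Relative to the list they had 1 to 23 higher and 2 to 22 lower (31.4% to 63.4% and 5.08% to 9.21%). In SGN-like against SC/SGC-like cells 71 were lower without P14 (17.6%), and relative to the list 16 higher and 11 lower (42.5% and 10%). Leaving out a P28 library there left 1 sum on each side, as in these fits of OHC-like against DC/PC-like cells. In both comparisons fewer members and fewer of all genes were then called. Share differences then ran from 0.0622 to 0.405, -5.20 to -4.58, 2.32 to 5.31 and -9.93 to -7.12 percentage points for OHC-like against IHC-like, SGN-like, B cell-like and OHC-like against ISC/HeC/OSC-like cells.

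In OHC-like against IHC-like cells, the members higher numbered 1 with DESeq2 size factors, total UMIs or no replicate block. In these settings 9.64%, 7.32% and 8.13% of all genes were higher. They numbered 13 with only these classes fitted (17.1% of all genes) and 6 with at most 3000 genes and 15000 UMIs (7.49%). With at most 30% mitochondrial UMIs they numbered 5 (14.3%), and without *Malat1*-rich clusters 9 (14%). The members lower numbered 3 by DESeq2, 2 with only these classes, and 0 with no low-count filter or at most 3000 genes. In these settings 16.2%, 17.4%, 7.67% and 3.04% of all genes were lower. By the list scaling 4 were higher and 7 lower with 10 UMIs in every sum, against 6.54% and 19.4% of all genes. With no replicate block 1 was higher (3.02%), and at 3000 genes 1 was higher and 1 lower (1.48% and 4.6%). The share difference was reversed, at -0.00649 points, for the mean of single cells.

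Against DC/PC-like cells 2 members were higher with 30% mitochondrial UMIs, where 20.9% of all genes were. Those lower numbered 4 with total UMIs, 20 by DESeq2, 3 with no filter or no replicate block, 30 at 3000 genes, 48 at 30% and 59 with no integration. The last 3 settings named this class at P28 also or instead. There 9.98%, 16% and 16.3% of all genes were lower by TMM, and 4.93% by the list scaling at 3000 genes. For the other settings, by either scaling, there was 1 sum on each side and no replicate check. Their counts are given without the share of all genes and cannot be set against a background, so no conclusion is drawn from them. By the list scaling 1 was higher with 10 UMIs or no replicate block, and 2 and 9 were lower with no replicate block and at 3000 genes, where *Rpl23a* was reversed (0.074). The share difference was -4.73 without mitochondrial genes, -4.76 also without haemoglobin genes, -2.90 for single cells, -8.02 at 3000 genes, -4.96 at 30%, -3.87 at 1000 to 5000 UMIs, -3.56 without *Malat1*-rich clusters and -6.35 with no integration.

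In SGN-like against SC/SGC-like cells 15 members were lower with no filter or no replicate block, against 7.97% and 13% of all genes. With 10 UMIs 31 were lower and 1 higher, against 33.2% and 23.7%, and at 3000 genes 0 were lower, against 5.79%. Relative to the list the counts higher and lower were 12 and 8 with 10 UMIs, against 36.5% and 20.3% of all genes. They were 3 and 0 with no replicate block (27.9% and 6.05%), and 1 and 0 at 3000 genes (16.6% and 3.12%). The share differences were -5.81, -5.99, -2.99, -3.33, -3.73 and -1.89 without mitochondrial genes, also without haemoglobin genes, for single cells, at 3000 genes, at 30% and at 1000 to 5000 UMIs. In B cell-like against macrophage-like cells 1 member was higher with DESeq2 size factors, against 4.98% of all genes. By DESeq2 or with only these classes 4 were higher (5.37% and 9.1%), and with 10 UMIs 1 was lower (13.1%). Relative to the list 3 were higher and 2 lower with 10 UMIs, against 10.8% and 8.35% of all genes. With no replicate block 0 were higher and 0 lower (2.19% and 5.62%), and at 3000 genes 0 were higher (2.76%). The share difference was 7.71 at 5% mitochondrial UMIs, where P14 alone gave a value, which was 7.81 at 15%. Against ISC/HeC/OSC-like cells no replicate block gave 3 higher and 3 lower relative to the list, against 46.9% and 8.2% of all genes. The cause of these changes was not tested. Of 41 calls of named members 15 were lost with no replicate block, and of 16 by TMM none under DESeq2.

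For DC/PC-like cells, leaving out P14, fitting only these classes and leaving out libraries for the share gave no value, and the limit of 5% mitochondrial UMIs gave one only for B cell-like and macrophage-like cells. Small classes limit the counts: the P28 sums held 27 and 40 B cell-like and 70 and 42 SC/SGC-like cells, and the IHC-like sums 60 to 113. The P14 sum led by *Mbp*, *Mobp* and *Mog*, which was not compared with another class, held 31 cells.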

Other observations

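Some P28 clusters were given no name. The ribosomal protein genes took 14.3% of the UMIs in 1 of them with 126 cells, 6.83% in another and 2.78% in the last, which had too few markers for a name. Processed pseudogenes and unnamed copies took part of the UMIs of several pairs: *Rpl10-ps3* held 2.79%, 4.58% and 5.25% of the UMIs of its pair with *Rpl10* at P14, P28 replicate 1 and P28 replicate 2, and *Rpl36a-ps1* 0.610%, 1.18% and 1.27% of its pair with *Rpl36a*. *Rpl9-ps6* held 3.03%, 2.25% and 2.63% of its pair with *Rpl9*.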
